A study of Mus musculus with 4 samples.

Results

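The 10 genes Star, Cyp11a1, Cyp17a1, Hsd3b1, Hsd3b6, Hsd17b1, Hsd17b3, Cyp19a1, Insl3 and Lhcgr, which encode steroidogenic proteins and Leydig cell products, were read by symbol from a table of 34682 genes, and all 10 were found there. The table holds RNA-seq counts of mouse ovaries at E13.5 (E, embryonic day) from 2 Sall1-overexpressing mutant libraries and 2 wild-type libraries. The mutants carry a BAC, a large genomic insert, in which the Wt1 promoter and regulatory elements drive the Sall1 coding sequence in somatic gonad cells. The BAC was integrated with PiggyBac into female embryonic stem cells, and mice were obtained by morula aggregation. Whether the sequenced embryos held host cells without the BAC is not given in the sources used here. The methods name C57BL/6J and a C57BL/6J-129 hybrid as stem cell backgrounds and CD1 as the source of wild-type gonads for sequencing, while the results call the controls littermates and the wild-type column names contain B6. The number of clones and of ovaries or animals per library is not given in the sources used here.

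In the adult gonad, steroid synthesis begins when luteinizing hormone acts through its receptor LHCGR and cyclic AMP. STAR then moves cholesterol into mitochondria, where CYP11A1 cleaves its side chain to give pregnenolone. HSD3B enzymes and CYP17A1 convert pregnenolone to progestins and androgens, HSD17B3 makes testosterone in the testis, and CYP19A1 (aromatase) and HSD17B1 make estrogens in the ovary. In the fetus, Leydig cells of the testis express most of this pathway together with the hormone INSL3, whereas the fetal mouse ovary makes little steroid.

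The libraries held between 11036313 and 17869840 counts. Levels are given as counts and as CPM (counts relative to the library size after TMM scaling), and a gene was called present in a library with at least 3 counts, which corresponds to between 0.170 and 0.272 CPM. Sall1 was higher in the mutant libraries, at 104 ± 11.8 CPM against 14.4 ± 2.53 CPM in the wild type (SD, n = 2 each), with a log2 fold change of 2.85 (SE 0.16, adjusted p = 0.00823 in edgeR's quasi-likelihood test). Wt1 had a log2 fold change of 0.03 (SE 0.10, adjusted p = 1.00 in the same test). The ovarian label was checked by markers: the 4 Y-linked genes had 0 counts in every library. Amh, a Sertoli cell hormone, had 3 counts in each library, but it was the lowest of 9 Sertoli cell markers by mean CPM. Of these 9, 8 reached the floor in all libraries, with Aard at 221 to 317 counts and Sox9 at 48 to 62 counts. Foxl2, a marker of pre-granulosa cells, was at 46.3 and 44.1 CPM in the mutant and 28.0 and 32.0 CPM in the wild type, with groups that did not overlap (log2 fold change 0.59, adjusted p = 0.301 in edgeR and 0.138 in DESeq2).

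Of the 10 genes, 6 were present in all 4 libraries, namely Star, Cyp11a1, Cyp17a1, Hsd3b1, Hsd3b6 and Lhcgr. These 6 also passed the filter for low counts and entered the test between genotypes, together with the rest of the 15442 genes that passed. The other 4 were under the floor in at least 1 library. Hsd17b1 reached 3 counts in 3 libraries, with 22 counts in mutant replicate 2, Hsd17b3 in 2 libraries, and Cyp19a1 and Insl3 in 1 library each.

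**Figure D1:**
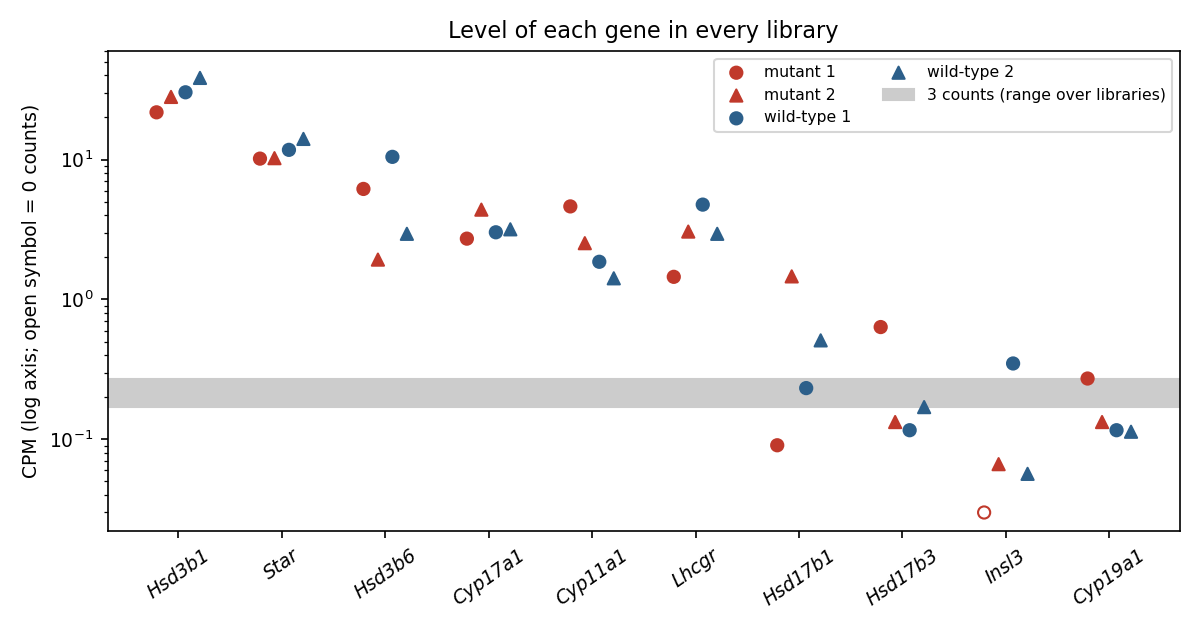
CPM of each gene in each of the 4 libraries on a log axis (red, mutant; blue, wild-type; circles, replicate 1; triangles, replicate 2), with a grey band for the level that 3 counts represent. Of the 10 genes, 6 lie above the band in every library, Hsd17b3, Insl3 and Cyp19a1 lie between 0 and 0.635 CPM, and Hsd17b1 runs from below it to 1.46 CPM in mutant replicate 2.

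To compare levels between genes, counts were divided by exon length (RPKM, that is, CPM per kilobase of exon). Hsd3b1 had the highest level, at a mean of 16.0 RPKM over the 4 libraries, and its lowest library (11.7 RPKM) lay above the highest library of Star (4.16 RPKM), the next gene in order. Hsd3b1 exceeded 76.4% of the 17434 genes with a count and a length. Star followed at a mean of 3.42 RPKM, Hsd3b6 at 2.98 RPKM, Cyp17a1 at 1.54 RPKM, Cyp11a1 at 1.47 RPKM and Lhcgr at 1.20 RPKM. Star exceeded 47.6% and Lhcgr 36.1% of detected genes, so that these 5 genes were near or under the middle of the range of detected genes. Hsd17b1 had a mean of 0.429 RPKM, Hsd17b3 0.205 RPKM, Insl3 0.189 RPKM and Cyp19a1 0.0657 RPKM, and the last exceeded 12.1% of detected genes. The level and place of Insl3 are uncertain, because 64.8% of the exon bases in its length are shared with another gene, Jak3. Below Hsd3b1, the ranges of every pair of neighbours in this order overlapped across the libraries. The order of Lhcgr over Hsd17b1 nevertheless held within each of the 4 libraries, and Star was above Hsd3b6 in 2 of them.

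**Figure D2:**
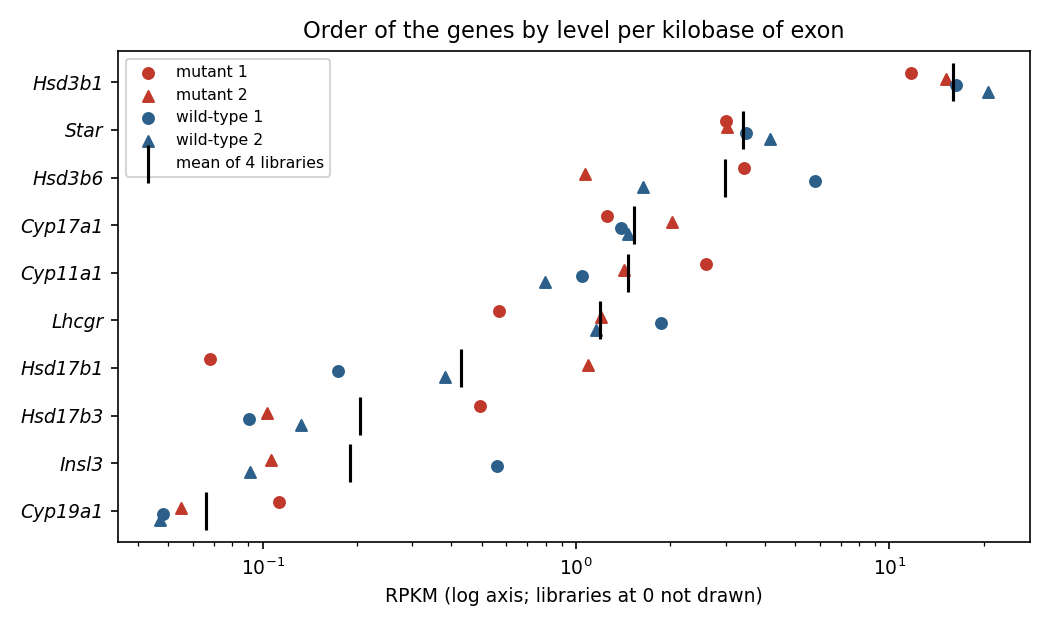
RPKM of each gene on a log axis, with 1 symbol per library (red, mutant; blue, wild-type) and a bar at the mean of the 4 libraries; the library of Insl3 with 0 counts is not drawn. Hsd3b1 stands apart from the rest, with a mean of 16.0 RPKM against 3.42 RPKM for Star, and the other neighbours overlap.

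Between genotypes, edgeR called 0 of the 6 genes at an adjusted p under 0.05 in its quasi-likelihood test, against 0.0583% of all genes tested. DESeq2 also called 0 of the 6, against 0.714% of all genes with an adjusted p. At an unadjusted p under 0.05, edgeR gave 2 of the 6, Cyp11a1 and Hsd3b1, and 878 of all 15442 genes. The fitted level was higher in the mutant for 2 genes and lower for 4. Their median log2 fold change was -0.40, and that of all genes tested was near 0. Groups did not overlap for 3 of the 6: both mutant libraries lay above both wild-type libraries for Cyp11a1, as for 15.8% of all genes tested, and below them for Star and Hsd3b1, as for 15.1%. For a single gene, the two-sided exact permutation test over 2 and 2 libraries goes no lower than p = 0.3333. Any gene whose groups do not overlap reaches this value, so it adds nothing to the overlap given above. It was reached by Star, Cyp11a1, Hsd3b1 and Cyp19a1, the last on counts of 3 and 2 against 2 in each wild-type library. In whole ovaries, fewer cells of a type and less RNA per cell cannot be told apart.

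**Figure D3:**
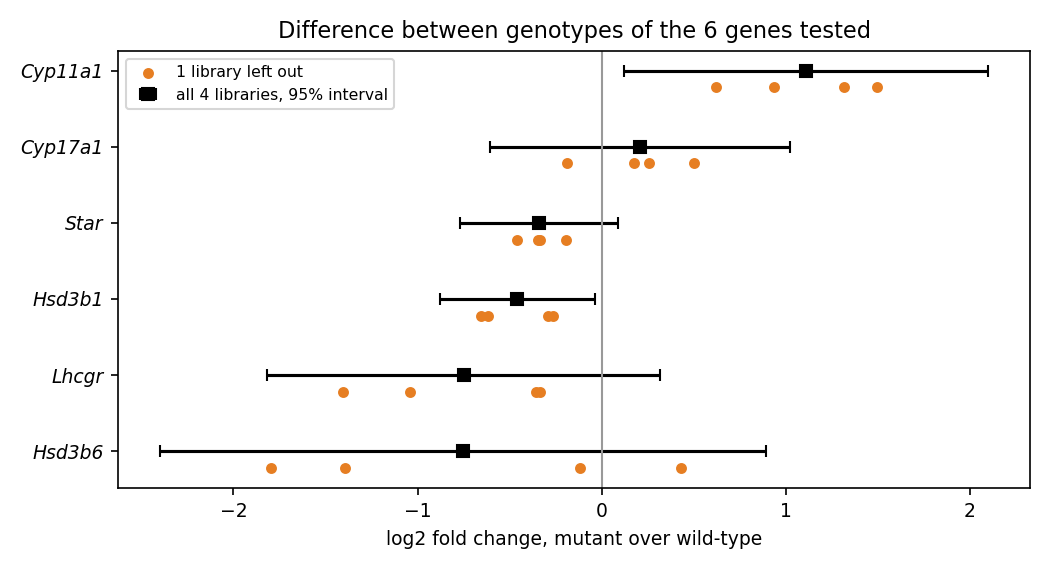
Log2 fold change of mutant over wild-type for the 6 genes tested (squares, with 95% intervals from edgeR), and the same value with 1 library left out at a time (orange points). The intervals of Cyp11a1 (0.12 to 2.10) and Hsd3b1 (-0.88 to -0.04) leave out 0, and the points of Cyp17a1 and Hsd3b6 fall on both sides of it.

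Lhcgr, the receptor for luteinizing hormone, lies on the minus strand at chr17:89140889-89191316 (NCBIM37, annotation GENCODE M1, as for all positions here). It had counts of 16 and 46 in mutant and of 82 and 52 in wild-type libraries, or 1.45 and 3.06 CPM against 4.77 and 2.95 CPM. Mutant replicate 1 was lowest and wild-type replicate 1 highest, while both libraries numbered 2 had nearly the same level. The log2 fold change was -0.75 (SE 0.45, 95% interval -1.82 to 0.32, adjusted p = 1.00, edgeR). It went to -1.41 without mutant replicate 2 and to -0.33 without mutant replicate 1.

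Star, which delivers cholesterol to the inner mitochondrial membrane, lies at chr8:26918946-26925782 on the plus strand. It had counts of 112 and 154 in mutant and of 202 and 248 in wild-type libraries. The mutant libraries shared a level of 10.2 CPM, and the wild-type libraries were above them at 11.7 and 14.1 CPM. The log2 fold change was -0.34 (SE 0.18, 95% interval -0.77 to 0.09, adjusted p = 1.00, edgeR).

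Cyp11a1, the side-chain cleavage enzyme that starts steroid synthesis, lies at chr9:57862820-57874827 on the plus strand. It had counts of 51 and 38 in mutant and of 32 and 25 in the deeper wild-type libraries. In CPM, the mutant libraries were at 4.63 and 2.53 and the wild-type libraries at 1.86 and 1.42, so that both mutant libraries were higher. The mean was 3.58 ± 1.49 CPM in the mutant and 1.64 ± 0.313 CPM in the wild type (SD, n = 2 each). The fold change was 2.16 (95% interval 1.09 to 4.29, unadjusted p = 0.0327, adjusted p = 0.806, edgeR), and no other of the 6 differed by 2-fold in either direction. Without mutant replicate 1, the log2 fold change went from 1.11 to 0.62.

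The adrenal cortex, next to the gonad, also expresses Cyp11a1, and a list of 6 of its markers had summed levels of 5.99 and 4.12 CPM in the mutant and 3.95 and 2.89 CPM in the wild type. Of the list, 3 genes were present in all libraries. Mc2r, the corticotropin receptor, had 25 counts in each mutant library against 19 and 12 (log2 fold change 1.12, adjusted p = 0.848, edgeR). Mrap, its accessory protein, had 30 and 28 against 30 and 23 counts, or 2.72 and 1.86 against 1.74 and 1.30 CPM (log2 fold change 0.58, edgeR). Akr1b7 had 8 counts in each mutant library and 16 in each wild-type library, or 0.726 and 0.532 against 0.930 and 0.907 CPM (log2 fold change -0.56, edgeR). The enzymes that define adrenal steroids were at or near 0: Cyp11b2 had 0 counts in every library, Cyp21a1 had 1 count in 1 library, and Cyp11b1 had 3, 1, 2 and 0 counts. The summed level of 9 Sertoli cell markers was also higher in the mutant, at 45.3 and 41.5 CPM against 33.4 and 34.2 CPM, with 0 of the 8 tested called by edgeR and a median log2 fold change of -0.09. The part of adrenal or Sertoli cells in the Cyp11a1 values was not tested.

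The HSD3B enzymes convert pregnenolone to progesterone and are encoded by a cluster of close copies on chromosome 3. Hsd3b1 lies at chr3:98656117-98663717 and Hsd3b6 at chr3:98609427-98618366, both on the minus strand. Their coding sequences are 1122 bases long each and 90.02% identical. Below is a coding stretch of 112 bases from each, positions 230 to 341 of the coding sequence, shown because it holds the longest run of identical bases (72) between them. It crosses an exon boundary, and capitals mark the 5 positions at which the bases differ.
Hsd3b1, from chr3:98657256-98659997: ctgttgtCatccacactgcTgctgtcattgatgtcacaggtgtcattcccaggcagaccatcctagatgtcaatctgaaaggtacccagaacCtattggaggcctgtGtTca
Hsd3b6, from chr3:98610564-98611768: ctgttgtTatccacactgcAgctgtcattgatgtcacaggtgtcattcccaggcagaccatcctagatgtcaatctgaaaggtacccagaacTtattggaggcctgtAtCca
A read that falls within the identical run could come from either gene. Of all windows of 50 bases, 2.22% of those of Hsd3b1 and 16.03% of those of Hsd3b6 occurred in another gene's transcripts. Hsd3b6 is closer still to Hsd3b2 (94.39%) and Hsd3b3 (94.47%), and counts of Hsd3b6 are therefore less certain than those of Hsd3b1.

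Hsd3b1 had counts of 240 and 422 in mutant and of 521 and 677 in wild-type libraries, or 21.8 and 28.0 CPM against 30.3 and 38.4 CPM. Both mutant libraries were lower than both wild-type libraries. The log2 fold change was -0.46 (SE 0.18, 95% interval -0.88 to -0.04, unadjusted p = 0.0364, adjusted p = 0.833, edgeR). Between libraries of the same replicate number, the mutant level was 0.719 times the wild type in number 1 and 0.731 times in number 2.

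Hsd3b6 had counts of 68 and 29 in mutant and of 180 and 52 in wild-type libraries, or 6.17 and 1.93 CPM against 10.5 and 2.95 CPM. The libraries divided by replicate number rather than by genotype: replicate 1 was 3.20 times replicate 2 in the mutant and 3.55 times in the wild type. Hsd3b6 made up 22.1% (95% exact interval 17.6 to 27.1) of the reads of Hsd3b1 and Hsd3b6 together in mutant replicate 1 and 25.7% (22.5 to 29.1) in wild-type replicate 1. In the replicate 2 libraries the share was 6.43% (4.35 to 9.10) in the mutant and 7.13% (5.37 to 9.25) in the wild type. The intervals cover counting error only, and those of the replicate 1 libraries do not overlap those of the replicate 2 libraries. The fit between genotypes gave a log2 fold change of -0.75 (SE 0.69, 95% interval -2.40 to 0.89, adjusted p = 1.00, edgeR), which turned to 0.43 without wild-type replicate 1. Within number 1 the mutant level was 0.590 times the wild type, and within number 2 it was 0.654 times. The sum of both genes was 27.9 and 30.0 CPM in the mutant libraries and 40.7 and 41.3 CPM in the wild-type libraries.

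A list of 7 blood cell genes divided the libraries by replicate number too, with summed levels of 2866 and 3133 CPM in the replicate 1 libraries of mutant and wild type and 798 and 1544 CPM in those of replicate 2. Of its genes, 4 were present in all libraries. The globin genes Hba-a1, Hba-a2 and Hbb-b1 had at most 1 count in any library, whereas Hbb-y had 11639 to 51690 counts. The cause of these low counts was not tested. Alas2, which makes heme in red cells, had counts of 791 and 248 in mutant and of 1504 and 525 in wild-type libraries. A list of 4 adrenal medulla genes was higher in replicate 1 as well, at 5.26 and 3.89 CPM against 2.06 and 3.0 CPM. Most of this sum was Chga, while Th was highest in wild-type replicate 2. A list of 5 germ cell genes was lower, at 1246 and 1326 CPM against 1489 and 1469 CPM. Its largest part was Dazl, while Sycp3 was highest in wild-type replicate 1. Regulators of steroidogenic genes also summed higher in replicate 1, at 1618 and 1640 CPM against 1334 and 1534 CPM. So did hormone receptors and coupling genes, at 1765 and 1724 CPM against 1688 and 1691 CPM. The part of any of these lists in the Hsd3b6 values was not tested.

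**Figure D4:**
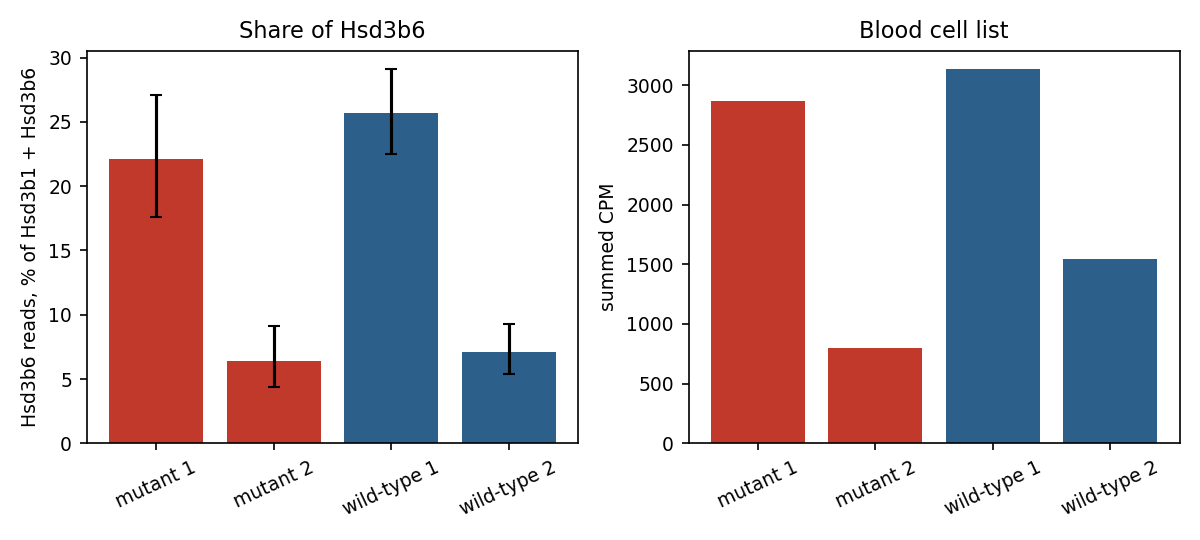
Left, Hsd3b6 reads in percent of the reads of Hsd3b1 and Hsd3b6 together, with 95% exact intervals for counting error; right, the summed CPM of 7 blood cell genes, both per library. Both replicate 1 libraries are above both replicate 2 libraries in each panel, at 22.1% and 25.7% against 6.43% and 7.13% on the left.

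The other copies of the family were near 0. Hsd3b2 had 3, 1, 3 and 0 counts and Hsd3b3 had 3, 0, 2 and 1 counts in mutant 1, mutant 2, wild-type 1 and wild-type 2, and Hsd3b4 and Hsd3b5 had 0 counts in every library. The longest identical coding runs of Hsd3b6 with Hsd3b2 and Hsd3b3 are 144 and 147 bases. The low counts of these copies are therefore uncertain too. Hsd3b7, which acts in bile acid synthesis, had between 169 and 286 counts, with a log2 fold change of 0.11.

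Cyp17a1, the enzyme that turns progestins into androgens, lies at chr19:46741655-46747464 on the minus strand. It had counts of 30 and 66 in mutant and of 52 and 56 in wild-type libraries, or 2.72 and 4.39 CPM against 3.02 and 3.17 CPM. The wild-type libraries lay between the mutant ones. The log2 fold change was 0.21 (SE 0.34, 95% interval -0.61 to 1.02, adjusted p = 1.00, edgeR), and it turned to -0.19 without mutant replicate 2.

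Of the enzymes that complete sex steroids, Hsd17b3 (chr13:64159582-64190509, minus strand), which makes testosterone, had counts of 7 and 2 in mutant and of 2 and 3 in wild-type libraries. Its summed level in the mutant was 2.41 times that in the wild type, with a 95% counting interval from 0.724 to 9.14. Hsd17b1 (chr11:100939725-100941841, plus strand), the estradiol-forming enzyme of granulosa cells, had counts of 1 and 22 in mutant and of 4 and 9 in wild-type libraries. The mutant libraries were thus the lowest and the highest of the 4, at 0.0907 and 1.46 CPM, and the ratio of 2.37 between the summed groups (counting interval 1.15 to 5.08) rested on mutant replicate 2. Cyp19a1, or aromatase (chr9:54013744-54115917, minus strand), had counts of 3 and 2 in mutant libraries and of 2 in each wild-type library. In 3 of 4 libraries it was below the floor, and its mutant to wild-type ratio was 1.67 with a counting interval from 0.360 to 8.42. A difference in Hsd17b3 or Cyp19a1 was not detectable at this depth.

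Insl3, the peptide hormone of Leydig cells that guides testis descent, lies at chr8:74213113-74214474 on the plus strand. It had counts of 0 and 1 in mutant and of 6 and 1 in wild-type libraries, so that wild-type replicate 1 alone reached the floor. For the 0 counts of mutant replicate 1, the floor of 3 counts is 0.272 CPM, and the exact 95% counting interval reaches up to 0.335 CPM. The ratio of mutant to wild type, 0.191, had a counting interval from 0.00424 to 1.49, and a difference was not detectable at this depth. The second of its 2 exons, chr8:74214071-74214474, is also annotated as the last exon of Jak3, a cytokine receptor kinase gene on the same strand. This segment of 404 bases makes up 64.8% of the exon bases of Insl3, and reads within it cannot be assigned to 1 of the 2 genes. Jak3 had counts of 41 and 59 in mutant and of 78 and 97 in wild-type libraries (log2 fold change -0.39, adjusted p = 1.00, edgeR).

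Of 103 other genes of the pathway in 6 lists by role, 101 were in the table and 87 were tested. edgeR called 0 of the 87 (smallest adjusted p = 0.0811, for Tcf21), with 13 at an unadjusted p under 0.05. DESeq2 called 4 of the 88 with an adjusted p, all 4 lower in the mutant, against 0.428% of all genes called lower. Of the 87, 16 had both mutant libraries above and 18 had both below the wild-type libraries, beside the 15.8% and 15.1% of all genes given above. The lists differed in this. Of 17 regulators of steroidogenic genes, 1 was above and 7 below, and of 15 genes of Leydig progenitor signalling, 1 and 6. Of 21 cholesterol supply genes, 6 were above and 2 below, and of 13 hormone receptors and coupling genes, 5 and 1. Electron donors and redox partners had 1 and 0, and other steroid-converting enzymes 2 and 2.

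**Figure D5:**
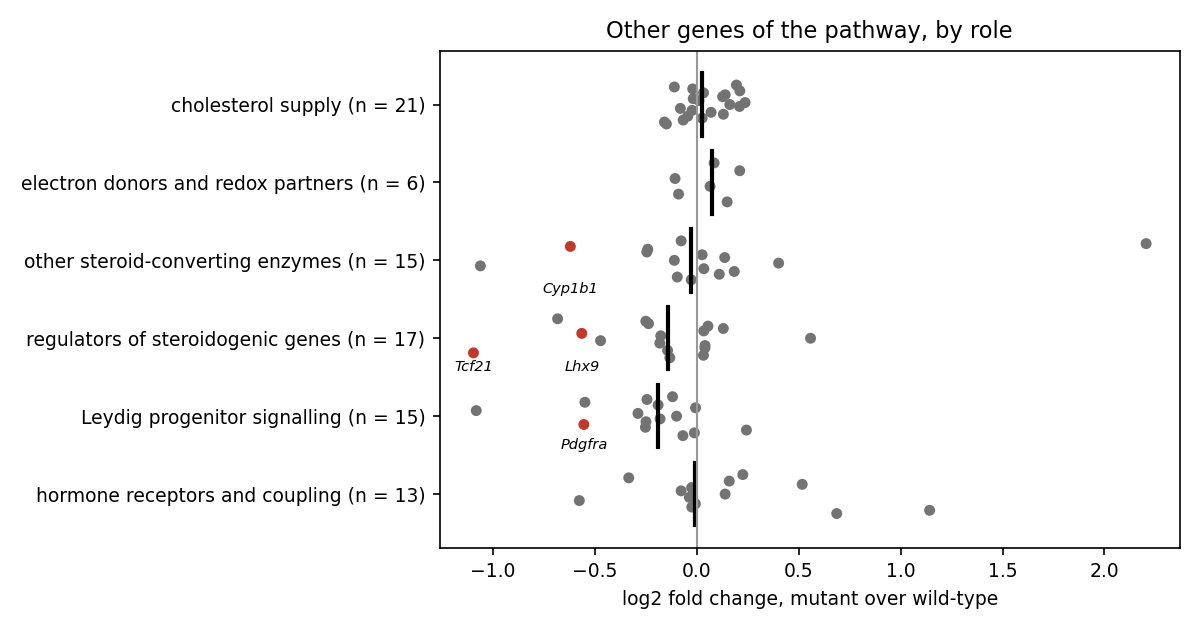
Log2 fold change of mutant over wild-type from edgeR for the tested genes of 6 pathway lists (points; bars, medians; n, genes tested), with genes called by DESeq2 in red and named. Cholesterol supply genes lie close to 0 around a median of 0.03, and 14 of the 15 genes of Leydig progenitor signalling are below 0.

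The 21 tested genes of cholesterol supply (22 listed) all stayed between -0.16 and 0.24 on the log2 scale, with a median of 0.03 and 0 called by edgeR or DESeq2. Among those with the highest counts were Soat1, which esterifies cholesterol, at 191 to 228 CPM, and Srebf2, a regulator of cholesterol synthesis, at 180 to 201 CPM. Hmgcs1 is listed at 0 in every library. The 6 electron donors and redox partners of the steroidogenic enzymes had a median of 0.07, and 0 were called by edgeR or DESeq2. Cyb5b lay between 149 and 190 CPM, Por, which passes electrons to CYP17A1 and CYP19A1, between 91.2 and 113 CPM, and Cyb5a between 62.3 and 75.6 CPM.

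Of 29 other steroid-converting enzymes, 27 were in the table and 15 were tested, with 0 called by edgeR, 1 by DESeq2 and a median of -0.03. Hsd17b4, Hsd17b11 and Hsd17b10, which act mainly on fatty acids and other substrates, had the highest counts, at 122 to 132, 84.4 to 107 and 75.9 to 85.5 CPM. Hsd17b12 and Hsd17b7, of lipid and cholesterol synthesis, were at 72.4 to 87.3 and 22.1 to 27.9 CPM. The estrogen-inactivating Hsd17b2 had counts of 7 and 14 in mutant and of 32 and 26 in wild-type libraries (log2 fold change -1.06, adjusted p = 0.867, edgeR). Hsd17b14 had 18 to 25 counts, Hsd17b13 had 3 to 7 counts and Hsd17b6 had 0 to 4 counts. Cyp1b1, which hydroxylates estrogens, was at 59.0 and 48.7 CPM in the mutant and 83.3 and 81.9 CPM in the wild type, and was called lower by DESeq2 (log2 fold change -0.63, adjusted p = 0.0145) but not by edgeR (adjusted p = 0.266). Akr1c18, which inactivates progesterone, had counts of 22 and 42 in mutant and of 8 and 10 in wild-type libraries. Its log2 fold change of 2.20 (SE 0.44) had an adjusted p of 0.266 in edgeR and 0.383 in DESeq2.

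Among 17 regulators of steroidogenic genes, all tested, edgeR called 0 and DESeq2 called 2, and the median was -0.14. Those with the highest counts were Wt1, at 292 to 341 CPM, Gata4, at 231 to 328 CPM, and Nr5a1 (SF-1), the nuclear receptor that activates most steroidogenic genes, at 164 to 200 CPM. Nr5a1 was thus far above the floor in all 4 libraries, with a log2 fold change of 0.04 (SE 0.13, adjusted p = 1.00, edgeR). Tcf21, a repressor of Nr5a1 in the early gonad, was at 28.0 and 23.3 CPM in the mutant and 57.7 and 51.7 CPM in the wild type, and DESeq2 called it lower (log2 fold change -1.10, adjusted p = 2.71e-06). Lhx9, a factor of gonad formation, was at 132 and 101 CPM against 173 and 171 CPM and was also called lower by DESeq2 (log2 fold change -0.57, adjusted p = 0.0233). Nr2f2, a factor of interstitial cells, had 67.7 and 44.8 CPM against 85.9 and 69.6 CPM. Nr0b1 (DAX1), which restrains SF-1, had 21.6 and 24.9 CPM against 14.8 and 16.8 CPM. For Nr2f2 and Nr0b1 the groups did not overlap, and their adjusted p was 0.891 and 0.50 in edgeR.

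The 15 genes of Leydig progenitor signalling, which carry the hedgehog, PDGF and Notch signals by which fetal Leydig cells arise or are held back, had a median log2 fold change of -0.19. edgeR called 0 of them and DESeq2 called 1, and 14 were below 0. Pdgfra, the PDGF receptor of gonadal mesenchyme, was at 168 and 139 CPM in the mutant and 233 and 217 CPM in the wild type. DESeq2 called it lower (log2 fold change -0.56, adjusted p = 0.00679), while its adjusted p in edgeR was 0.301. Notch2 and Smo, which with Pdgfra had the highest counts, were at 175 to 210 and 177 to 195 CPM. Gli2, a transcription factor of hedgehog signalling, had 21.3 and 19.9 CPM against 28.9 and 31.3 CPM (log2 fold change -0.55, adjusted p = 0.363, edgeR). The 1 gene above 0 was Ptch1, the hedgehog receptor, at 96.4 and 106 CPM against 85.6 and 85.3 CPM (log2 fold change 0.24, adjusted p = 0.849, edgeR).

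Of 14 hormone receptors and coupling genes, 13 were tested, and edgeR and DESeq2 called 0, with a median of -0.01. Gnas, the G protein that couples LHCGR to cyclic AMP, was at 856 to 929 CPM, and Prkar1a, a subunit of the kinase that follows, at 380 to 407 CPM. Amhr2, the receptor for AMH, was at 139 to 189 CPM. Prlr, the prolactin receptor, had counts of 82 and 167 in mutant and of 65 and 82 in wild-type libraries (log2 fold change 1.14, SE 0.28, adjusted p = 0.430, edgeR). Fshr, the receptor for follicle-stimulating hormone, is listed at 0 in every library.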

How the data were processed

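RNA was extracted from ovaries dissected at E13.5 and sequenced on an Illumina HiSeq. Reads were mapped by the authors with STAR 2.6.1d and assigned to genes by summarizeOverlaps in R. The deposited values are raw counts per library, neither normalized nor pooled. The submitters' processing notes name mm9 and DESeq2. Read length, annotation and handling of strands are not given in the sources used here. Of the value columns, 0 were left unused.

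Counts of 34682 genes were analysed in R 4.3.3 with edgeR 4.0.16 (TMM, filterByExpr, quasi-likelihood F-test with genotype as the only factor, Benjamini-Hochberg adjustment over 15442 genes, threshold 0.05). DESeq2 1.42.0 with default settings, which the methods name, was the main alternative. Further alternatives changed the normalization, filter, test, threshold, prior count, replicate number as a block, gene length, floor, and the libraries used. Scripts were tested on simulated data. A floor of 3 counts and the 95% intervals of ratios and shares cover counting error only. The libraries of a group differed by more than sampling noise (chi-square per degree of freedom 12.3 in the mutant and 14.2 in the wild type). Nothing says that they came from separate animals, so that p-values measure the spread between these libraries, which may be technical.

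Positions, exon lengths and coding sequences came from GENCODE M1 on NCBIM37, the assembly that mm9 names, matched by symbol (21409 symbols matched). RPKM was computed from TMM-scaled counts and the union of exons. The genes named were the 10 genes, Sall1, Wt1, Hsd3b and Hsd17b relatives, genes sharing exons with them, and of each pathway list the 3 with the highest mean CPM and all those called by edgeR, by DESeq2 or with the block, some of which are not reported here. Markers, Ptch1 and genes listed at 0 were named in addition, after their values were seen. The genes and lists were chosen with earlier results of these data known. Some marker lists have no summed levels above. In mutant 1, mutant 2, wild-type 1 and wild-type 2, pre-granulosa cell markers summed to 634, 629, 588 and 611 CPM. In the same order, mesonephric duct and tubule markers summed to 37.2, 51.7, 37.5 and 41.6 CPM, and endothelial cell markers to 441, 421, 461 and 476 CPM.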

Additional observations from a re-analysis of the deposited data

How the results depend on the processing

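Each alternative was run on its own; DESeq2 changes normalization, filter and test together. Of 72 recomputed log2 fold changes of the 6 genes tested, 69 kept their direction and their side of the threshold. Hsd3b6 turned to 0.43 without wild-type replicate 1 (range with 1 library left out -1.79 to 0.43) and Cyp17a1 to -0.19 without mutant replicate 2 (-0.19 to 0.50), and the cause was not tested. Hsd3b1 passed with the replicate block (log2 fold change -0.46, adjusted p = 0.0456), which made 1 gene of the 6 called in place of 0, and its adjusted p ran up to 1.00 under the other alternatives. The labels do not say what a replicate number shares, and 2 pairs are too few to establish it. The count columns give adjoining library numbers to libraries of the same replicate number, and same-numbered libraries deviated together with a correlation of 0.491 across genes. Over all genes, calls went from 9 to 385 with the replicate block, 105 with DESeq2, 134 with the likelihood ratio test, 28 without a filter, 19 with at least 10 counts in every library and 20 at an adjusted p under 0.1, and leaving out 1 library gave 4 (without wild-type replicate 2) to 130 (without mutant replicate 1). Calls in the pathway lists went from 0 to 10 with the block, 4 with DESeq2, 6 with the likelihood ratio test, 1 without a filter, 1 with at least 10 counts, 1 at 0.1, and 0 to 5 with 1 library left out. Among the 10 called with the block were Tcf21, Pdgfra, Cyp1b1, Lhx9, Nr2f2 (log2 fold change -0.49) and Gli2 (-0.55), lower in the mutant, and Akr1c18 (2.19), Prlr (1.13) and Nr0b1 (0.56), higher. The order by RPKM was the same with the longest transcript's length. Depth limits Hsd17b1, Hsd17b3, Cyp19a1 and Insl3 most, with at most 22 counts in any library.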
